A study of Mus musculus with 19 samples.

Results

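The genes described here are 41 members of the TGF-beta and BMP pathway, chosen by name from 21000 protein-coding genes, and their 5-hydroxymethylcytosine (5-hmC) in mouse cardiomyocytes (CMCs). Genomic DNA of isolated C57BL/6J CMCs was profiled by hMeDIP-seq, in which an antibody against 5-hmC precipitates sonicated DNA before sequencing, with 2 biological replicates for each of 4 points. The points were E14.5 embryos, pups 1 to 2 days after birth (neonatal), mice aged 2 months (adult) and adults examined 1 week after surgical constriction of the transverse aorta (TAC), a narrowing of the aorta that loads the left ventricle with pressure. Adult and TAC mice were male. Embryonic and neonatal CMCs were freed from ventricles by collagenase and cleared of adherent cells on culture dishes. Adult and TAC CMCs came from perfused left ventricles and were sedimented by gravity. The method of isolation and the chamber taken therefore cannot be told apart from age between these pairs of points. The study's methods also describe a group of sham-operated mice, but neither they nor the labels say whether the adult samples used here came from it. For each sample a list of peaks, regions of more 5-hmC reads than in input DNA, was available, and the measure used throughout is coverage, the percent of a gene's span from the first to the last base of its curated transcripts that lay inside peaks.

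TGF-beta, activin and BMP ligands are secreted dimers that bring type I and type II receptor kinases together on the cell surface. The type I receptor then phosphorylates receptor Smads, which join the common Smad4, enter the nucleus and act on target genes such as those of the Id family. Inhibitory Smads, Smurf ubiquitin ligases and the Ski repressors dampen the response. In the heart, BMPs drive specification and growth of embryonic CMCs, and TGF-beta takes part in fibrosis and hypertrophy under load. 5-hmC is made from methylated cytosine, mostly at CpG dinucleotides, and is often found in the body of transcribed genes.

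The 8 lists held 104215 to 153637 peaks with a median width of 501 bp in each. TAC replicate 2 stood apart: its peaks covered 3.96% of a protein-coding gene on average, against 5.14 to 8.88% in the other lists, and its shared bases with TAC replicate 1 over all bases in either list (Jaccard index) came to 0.0569, against 0.203 to 0.247 within the other points. The tests and counts that set TAC against adult CMCs are therefore given also without it, whereas regions common to both TAC replicates need it. Of 10 CMC marker genes, 7 to 9 carried a peak in each list, and their mean coverage was 22.6 to 28.8% at E14.5 and in neonatal CMCs and 9.74 to 14.3% in adult and TAC CMCs. Of 8 fibroblast markers, 2 to 4 carried a peak, with mean coverage between 0.695 and 2.81%. Tcf21 and Col3a1 had no peak in any list. Col1a1 was covered to 2.98 to 13% in every list but TAC replicate 2. Vim had 5.88 to 7.35% in both adult lists, neonatal replicate 1 and TAC replicate 1, and 0 in the others. Col1a2, Postn, Pdgfra and Dcn had peaks in some lists. The 6 endothelial markers were covered to 5.44 to 14.2% and the 5 smooth muscle and pericyte markers to 3.22 to 7.8%. The 5 macrophage markers were covered to 10.2 to 22.5% before TAC and to 0.392 and 0.267% in TAC CMCs, a value set mostly by the short gene Cd68. The part of these other cells in the results below was not tested. As DNA of many cells was pooled, fewer cells with the mark and less of it per cell cannot be told apart.

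The pathway genes, taken as a mean, were covered more than other genes of their length in every list. Mean coverage of the 41 genes was 12.9 and 10.9% for the E14.5 replicates, 13.7 and 15.3% for neonatal, 13.3 and 16.1% for adult and 13.7 and 7.34% for TAC CMCs. The SD of the 2 replicates was 1.37, 1.09, 2 and 4.49 percentage points at these points, so neonatal and adult values overlapped and the TAC mean rests on 2 distant values. Protein-coding genes with a span within 1.5 times of each member's averaged 5.89 and 5.41%, 6.76 and 8.16%, 6.63 and 8.71%, and 6.51 and 4.1%. The ratio of both lay between 1.79, in TAC replicate 2, and 2.19, in E14.5 replicate 1, with both E14.5 values (2.19 and 2.02) above both adult values (2 and 1.85) and the other pairs of points overlapping. The mean was carried by some of the members: 30 of the 41 were above the median of the genes of similar span and 12 above their 90th percentile, while 11 were below the median. The list was not drawn at random and its long genes, with a median span of 61 kb against 16.7 kb over all protein-coding genes, were set only beside genes of similar length, so this is a description with no test.

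**Figure D1:**
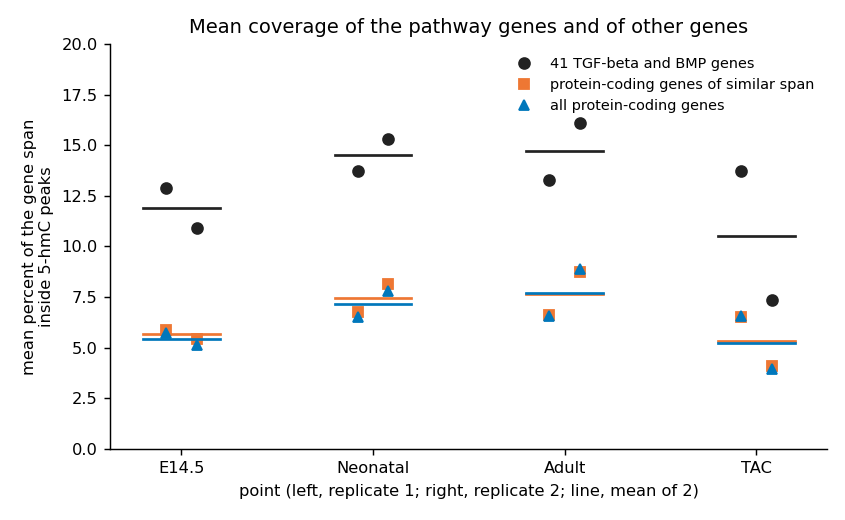
Mean percent of the gene span inside 5-hmC peaks (vertical axis) at the 4 points (horizontal axis) for the 41 pathway genes, for genes of similar span and for all protein-coding genes; each symbol is 1 replicate and each line the mean of 2. The pathway genes lie between 7.34 and 16.1%, above the other 2 sets in every list, and TAC replicate 2 is the lowest list for all 3 sets.

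Roles differed in coverage. The inhibitory Smads and Smurf ligases (4 genes) averaged 12.2 to 38.8% over the 8 lists and the repressors Ski and Skil 12.4 to 39.1%. The receptors (10 genes) averaged 6.46 to 14.9%, the receptor and common Smads (6 genes) 8.48 to 16.8%, and the latent TGF-beta binding proteins with noggin (5 genes) 7.55 to 18.8%. The ligands (10 genes) were the only role whose 4 embryonic and neonatal values, 12.9, 12.7, 11.2 and 11.9%, all lay above the adult and TAC values of 7.38, 10.1, 7.22 and 6.48%. The Id targets (4 genes) were at 0 in the E14.5 and neonatal lists and at 2.55, 0, 10.7 and 2.31% in the adult and TAC lists. By comparison, 72 other genes of the pathway averaged 5.53 to 11.8%.

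**Figure D2:**
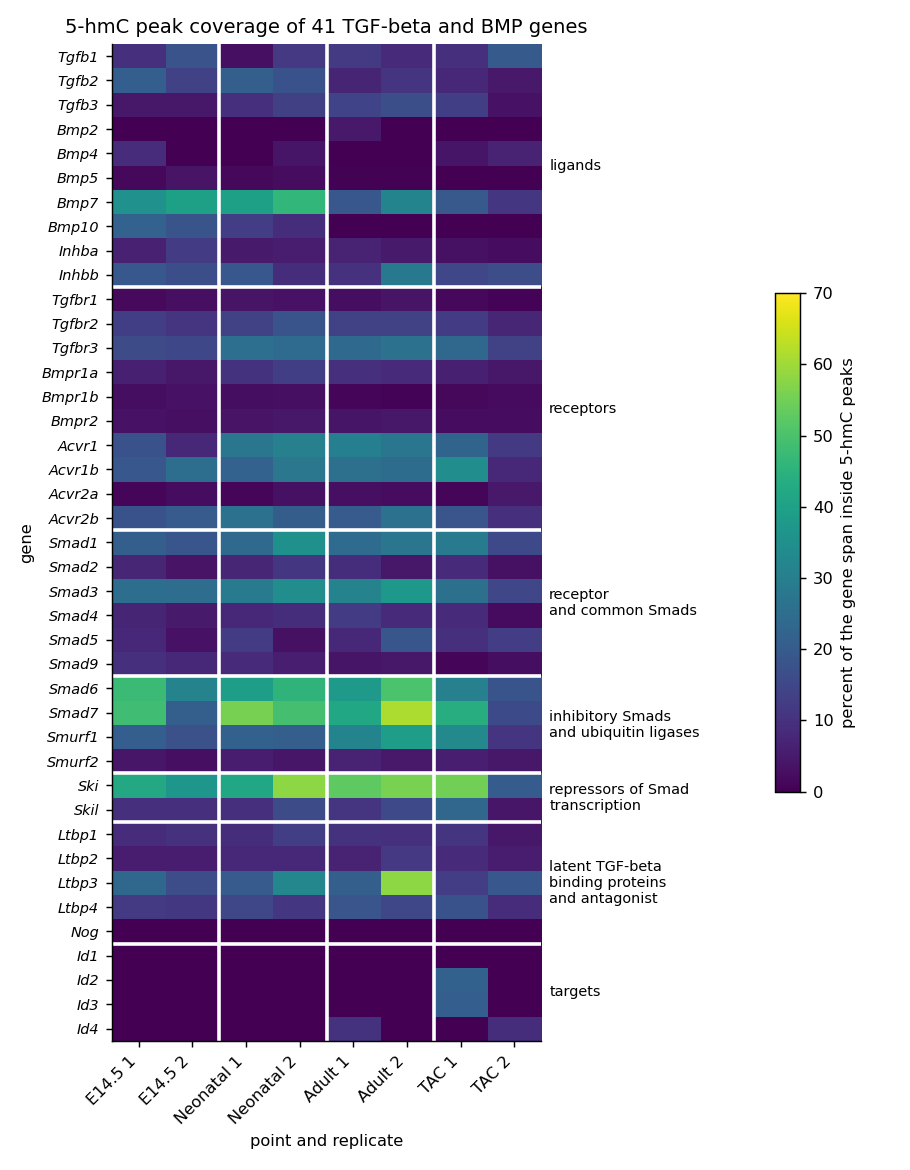
Percent of the gene span inside 5-hmC peaks (colour) for each of the 41 genes (rows, grouped by role) in each of the 8 lists (columns). Ski, Smad7, Smad6 and Bmp7 are the brightest rows, Nog and Id1 are at 0 throughout, and Bmp10 is covered in the 4 E14.5 and neonatal lists and at 0 in the 4 adult and TAC lists.

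Of the 41 genes, 36 had a peak in at least 2 lists and were tested with limma among 16049 genes, on log2(percent + 1). Over the 4 points, 1 member was called at an adjusted p below 0.05, Bmp10, where 2.23% of all genes tested were called. At an unadjusted p below 0.05 there were 5 of the 36 members, beside 12.4% of all genes. None of the 67 other pathway genes tested was called over the 4 points or in a contrast of 2 points.

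Bmp10, a BMP of the trabecular CMCs of the embryonic ventricle that sustains their growth, was the called ligand. Its span (GRCm38 chr6:87428994-87434512, plus strand, 5.52 kb) was covered to 21.9 and 18.2% at E14.5, to 12.8 and 9.08% in neonates and to 0 in both adult and both TAC lists. The 4 early lists thus all held peaks on the gene and the 4 later lists none, and the E14.5 values lay above the neonatal ones. It fell from neonatal to adult CMCs (log2 difference -3.56 ± 0.39 SE, limma adjusted p = 0.0191), where 1.4% of genes were called, and from E14.5 to adult CMCs (-4.39 ± 0.39 SE, adjusted p = 0.0091), where 1.75% were called. Over the 4 points its adjusted p was 0.0112. Bmp10 entered the test through its E14.5 and neonatal peaks alone, and the later values of 0 added no spread. Its SE and p-values may therefore be too small. The neonatal to adult call ended with centring (limma adjusted p = 0.0523), with the replicate number as a block (0.0551) and without any 1 of the neonatal or adult lists (0.0625 to 0.0702). The E14.5 to adult call ended without E14.5 replicate 2 (limma adjusted p = 0.0559). The mean coverage of the CMC markers was also lower in the later lists (given above), but single markers differed. Myh6, Myh7, Tnnt2 and Tnni3 were lower in both adult lists than in both E14.5 lists. Ttn rose from 14.2 and 5.75% at E14.5 to 27.1 and 28.1% in adults, and Ryr2 from 6.06 and 6.05% to 9.11 and 12.1%. The endothelial means of early and later lists overlapped. The part of these cells in the Bmp10 difference was not tested. The log2 values of Bmp10 depend on the 1 percentage point added to a coverage of 0 and are no fold change of the mark. From E14.5 to neonatal CMCs the difference was -0.83 ± 0.39 SE (limma adjusted p = 0.83).

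The called difference rests on few short peaks. On the gene, the E14.5 lists held 2 peaks each and the neonatal lists 1 each, of 501 to 839 bp. The E14.5 replicates shared bases at 2 places, across the end of the first coding exon and in the second coding exon, whereas the neonatal peaks shared none: replicate 1 had a peak over the start of the gene and replicate 2 one at the second coding exon. The regions common to both E14.5 replicates are shown as they carry the only called change among the 41 genes, on the plus strand of GRCm38 with CpG dinucleotides in capitals. The first (chr6:87429129-87429496) is 368 bp wide and its central 300 bases (chr6:87429163-87429462) hold 204 bases of coding exon, 96 of intron and 12 CpGs, and the second (chr6:87433805-87433949) is 145 bp of coding exon with 3 CpGs.
Bmp10 first coding exon and intron: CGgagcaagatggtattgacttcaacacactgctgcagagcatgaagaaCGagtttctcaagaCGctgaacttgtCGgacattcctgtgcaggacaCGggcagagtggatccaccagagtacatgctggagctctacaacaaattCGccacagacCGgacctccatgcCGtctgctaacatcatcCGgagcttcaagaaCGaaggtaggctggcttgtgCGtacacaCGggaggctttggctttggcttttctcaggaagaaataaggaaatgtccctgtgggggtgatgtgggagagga
Bmp10 second coding exon: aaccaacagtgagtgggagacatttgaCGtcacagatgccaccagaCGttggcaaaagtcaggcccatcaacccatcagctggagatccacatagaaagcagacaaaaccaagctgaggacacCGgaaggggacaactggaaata
The first printed stretch lay wholly inside a peak of both E14.5 replicates and neonatal replicate 1. Of the second stretch, neonatal replicate 2 covered 143 of 145 bases. Upstream of the gene the E14.5 replicates shared bases at 2 further places, at which neonatal replicate 2 had peaks too, and adult replicate 1 and TAC replicate 1 each had a peak overlapping the more distant one. With 10 kb added on each side the difference was no longer called (adjusted p = 0.356 over the 4 points), nor was it with peaks wider than the median of their list (0.706).

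**Figure D3:**
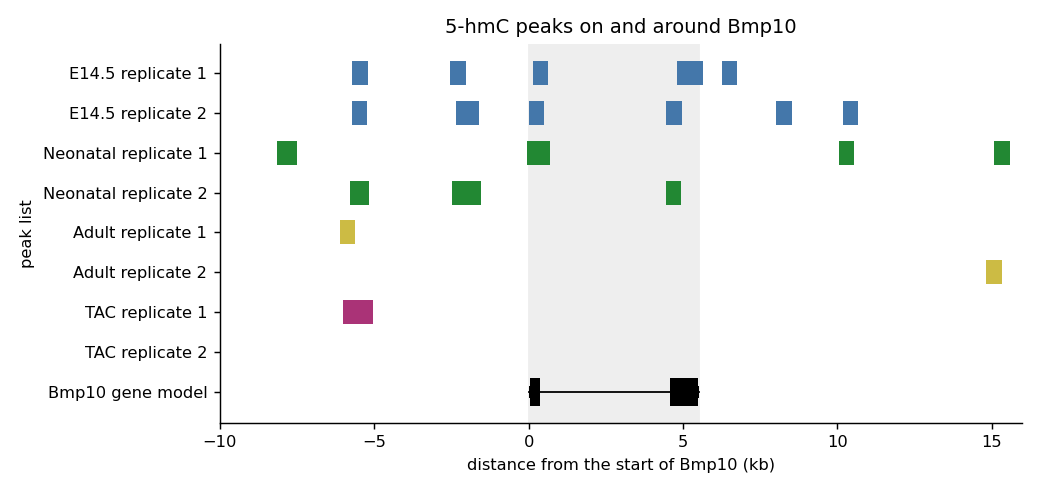
Peaks of the 8 lists (rows) by their distance from the start of Bmp10 in kb (horizontal axis), with the gene span shaded and its model in black, exons as boxes with the coding parts taller. Peaks fall on the shaded span in the 4 E14.5 and neonatal lists and in none of the adult and TAC lists, while TAC replicate 2 has no peak in the whole window.

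Bmp7 and Tgfb2 were also less covered at the later points, without passing the test. Bmp7 was covered to 35.5 and 39.9% at E14.5, 39.8 and 46.3% in neonates, 19 and 31.5% in adults and 19.5 and 11% after TAC. Tgfb2, the TGF-beta that is needed for cushion and outflow tract formation, had 20.9 and 13.5%, 21.2 and 17.5%, 7.27 and 10.4%, and 8.15 and 4.82%. In both genes the early values lay above all adult and TAC values. The log2 differences from neonatal to adult CMCs were -0.78 ± 0.41 SE for Bmp7 (limma adjusted p = 0.62) and -1.06 ± 0.41 SE for Tgfb2 (adjusted p = 0.478). Bmp5 was sparsely covered, with 1.6, 3.76, 1.6 and 2.41% in the early lists, 0.401% in each adult list and 0 in the TAC lists.

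In Bmp7 and Tgfb2, intronic stretches were found in all 4 early lists and in no adult or TAC list. The widest on each gene is shown by its central 300 bases, on the plus strand with CpGs in capitals: 6 in each. Both genes are on the minus strand. The Bmp7 region (chr2:172923660-172924266) is 607 bp wide and 16.4 kb inside the gene, and the Tgfb2 region (chr1:186657876-186658515) is 640 bp wide and 47.8 kb inside, measured from the gene start to the centre.
Bmp7 intron, chr2:172923813-172924112: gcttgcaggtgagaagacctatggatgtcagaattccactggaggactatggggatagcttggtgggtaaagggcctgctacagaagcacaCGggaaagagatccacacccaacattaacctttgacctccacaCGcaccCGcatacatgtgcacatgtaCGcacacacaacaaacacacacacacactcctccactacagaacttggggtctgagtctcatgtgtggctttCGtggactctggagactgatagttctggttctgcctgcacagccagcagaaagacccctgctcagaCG
Tgfb2 intron, chr1:186658046-186658345: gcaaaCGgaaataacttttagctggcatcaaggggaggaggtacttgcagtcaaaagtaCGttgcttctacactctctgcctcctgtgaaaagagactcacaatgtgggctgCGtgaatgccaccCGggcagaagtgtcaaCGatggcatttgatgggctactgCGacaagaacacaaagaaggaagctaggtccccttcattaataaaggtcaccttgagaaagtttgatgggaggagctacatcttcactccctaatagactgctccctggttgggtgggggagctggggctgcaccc

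Tgfb3 had the opposite order. It was covered to 4.49% in each E14.5 list, 9.35 and 13.2% in neonates, 14.1 and 16.7% in adults and 13.1 and 3.52% after TAC, so that the first 3 points did not overlap. Its difference from E14.5 to adult CMCs was 1.57 ± 0.58 SE (limma adjusted p = 0.271). Tgfb1 ranged from 2.77 to 19.7% with overlap of all points. The activin subunit genes differed: Inhba had 6.45 and 12.2% at E14.5, 5.07 and 5.7% in neonates, 6.69 and 4.97% in adults and was lowest after TAC, 3.05 and 2.23%, and Inhbb ranged from 9.24 to 28.3% with no order.

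Bmp4 was covered to 8.86 and 0% at E14.5, 0 and 3.92% in neonates, 0 in both adult lists and 3.89 and 7.01% after TAC. It had no region common to both replicates of any point, and its log2 difference from adult to TAC CMCs was 2.65 ± 1.26 SE (limma adjusted p = 0.744), which becomes 2.29 without TAC replicate 2. Bmp2 had a peak in adult replicate 1 only (4.67%) and was not tested.

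**Figure D4:**
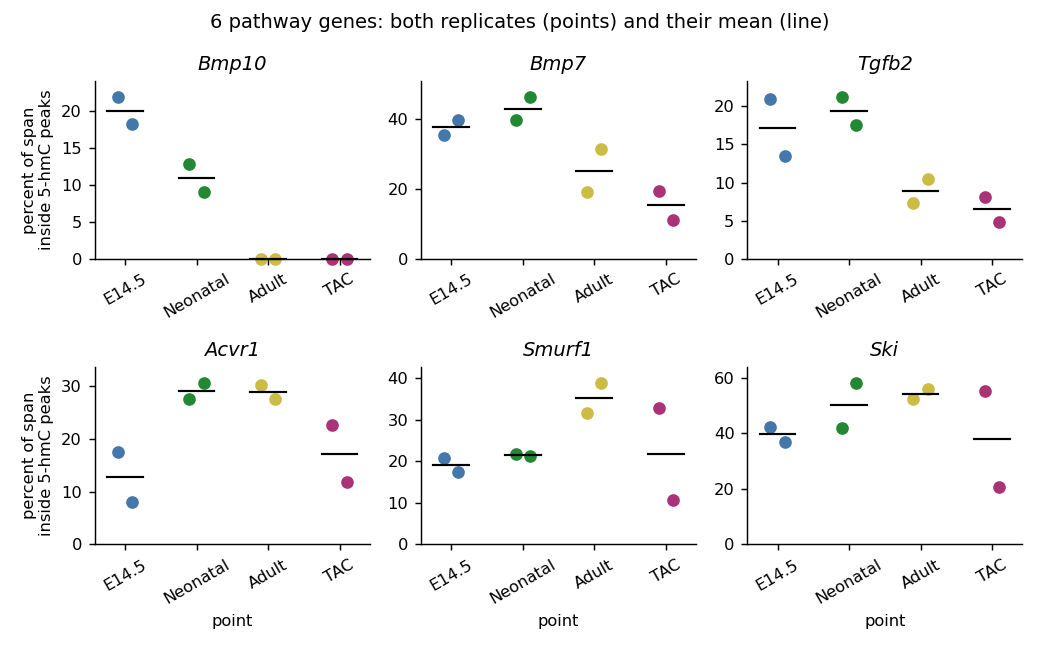
Percent of the span inside 5-hmC peaks (vertical axes, which start at 0 and differ between panels) for 6 genes at the 4 points; points are replicates and lines their mean. Bmp10, Bmp7 and Tgfb2 are lower in all adult and TAC lists than in all earlier lists, Acvr1 is higher in both neonatal and both adult lists than at E14.5, and Smurf1 and Ski have a gap of over 20 percentage points between the TAC replicates.

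Of the 10 receptors, 7 were more covered in both neonatal lists than in both E14.5 lists, as were 25.9% of all genes tested. After centring each list on the median of all genes tested, 3 of the 7 (Acvr1, Bmpr1a and Tgfbr3) still were, beside 16.5% of all genes. Acvr1, a type I receptor of BMPs, was covered to 17.5 and 7.96% at E14.5, 27.5 and 30.6% after birth, 30.1 and 27.5% in adults and 22.6 and 11.8% after TAC. Neonatal values lay above E14.5 (log2 difference 1.22 ± 0.48 SE, limma adjusted p = 0.714) and overlapped the adult values. Bmpr1a, another type I receptor of BMPs, was at 6.1 and 4.51%, 10.3 and 12.9%, 9.43 and 8.38%, and 6.05 and 4.54%, which are 4 points without overlap but for E14.5 and TAC. Its E14.5 to neonatal difference was 1 ± 0.34 SE (adjusted p = 0.634).

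Tgfbr3, the co-receptor betaglycan, had 16.3 and 15.3% at E14.5, 25.6 and 24.6% in neonates, 24 and 26.1% in adults, and 23.6 and 13.5% after TAC. The activin receptors Acvr1b and Acvr2b were covered to 8.03 to 34.3% and 9.58 to 26.4% over the lists, and Tgfbr2, the type II receptor of TGF-beta, to 7.48 to 18.3%. Tgfbr1, Bmpr2 and Acvr2a stayed at or below 4.65% in every list. Peaks where gene spans overlap, as those of Acvr2a and Orc4 do, cannot be given to 1 of the genes. Bmpr1b, with the longest receptor span (332 kb), had 2.59 to 3.33% in the early lists, 1.3 and 0.642% in adults and 1.53 and 1.92% after TAC, 1 of 2 members with TAC values above adult ones. Its log2 difference from adult to TAC CMCs was 0.49 ± 0.40 SE, and 0.38 without TAC replicate 2.

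Of the receptor Smads, Smad3, which carries TGF-beta signals, was covered to 25.3 and 25%, 28.9 and 34.3%, 31.4 and 37.2%, and 25.9 and 14.8%. Smad1, which carries BMP signals, had 21.2 and 18.7%, 24 and 35.1%, 24.6 and 27.6%, and 29.1 and 15.5%. Both were above E14.5 in the neonatal and adult lists. Their partners were less covered: Smad5 3.08 to 18.6%, Smad9 1.1 to 9.34%, Smad2 3.05 to 11.2% and the common Smad4 2.18 to 12.4%. Smad9 was the 1 Smad with lower adult than neonatal values, 3.91 and 4.39% against 8.67 and 5.84%.

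The most covered members, Ski, Smad7 and Smad6, were negative regulators. Other negative regulators were less covered: over the 8 lists Smurf1 averaged 24.4%, Skil 12.3%, Smurf2 4.81% and Nog 0. Ski, a repressor that binds Smads, had the highest mean over the 8 lists, 45.4%, followed by the inhibitory Smad7 (42.1%) and Smad6 (37.5%), then Bmp7 (30.3%) and Smad3 (27.9%). Ski was covered to 42.3 and 36.9% at E14.5, 41.9 and 58.2% in neonates, 52.5 and 55.8% in adults and 55.2 and 20.5% after TAC. Smad7, which blocks type I receptors, had 48.6 and 21.2%, 55.6 and 49.3%, 41.7 and 61.5%, and 43.6 and 15.6%. Smad6, the inhibitor of BMP signals, had 47.6 and 31.4%, 39.3 and 45.4%, 37.6 and 50.1%, and 30.5 and 18.1%. For Smad6 both TAC lists lay below both adult lists, whereas for Ski and Smad7 TAC replicate 1 lay within the adult range and replicate 2 far below.

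These genes also held the widest peaks. Of 47 peaks of at least 4 kb on the 41 genes, 14 lay on Ski, 10 on Smad6, 5 on Smad7 and 5 on Smad3, and the widest was one of 12002 bp on Ski in TAC replicate 1. TAC replicate 2 had none of this width, and its widest on Ski was 1475 bp.

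Smurf1, a ubiquitin ligase that targets BMP Smads and receptors, was, among the members without overlap, the one with the largest gain to adult CMCs in percentage points, 16.3 from E14.5 and 13.8 from neonatal CMCs. On the log2 scale, among the same members, Tgfb3 (1.57), Acvr1 (1.21) and Smad5 (1.09) gained more from E14.5 than Smurf1. It was covered to 20.8 and 17.4% at E14.5, 21.7 and 21.3% in neonates, 31.7 and 38.9% in adults and 32.9 and 10.7% after TAC. The adult values and TAC replicate 1 lay above all 4 early values, with a log2 difference from E14.5 to adult CMCs of 0.85 ± 0.53 SE (limma adjusted p = 0.469). Smurf2 stayed between 2.88 and 6.68%. Skil, the relative of Ski, ranged from 4.36 to 23.1%.

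The Smurf1 stretch below is the widest found in both adult lists and in no early list (chr5:144906955-144908028, 1074 bp, intron, gene on the minus strand). Its central 300 bases also lay in a peak of TAC replicate 1 but not of replicate 2, and hold 7 CpGs in capitals.
Smurf1 intron, chr5:144907342-144907641: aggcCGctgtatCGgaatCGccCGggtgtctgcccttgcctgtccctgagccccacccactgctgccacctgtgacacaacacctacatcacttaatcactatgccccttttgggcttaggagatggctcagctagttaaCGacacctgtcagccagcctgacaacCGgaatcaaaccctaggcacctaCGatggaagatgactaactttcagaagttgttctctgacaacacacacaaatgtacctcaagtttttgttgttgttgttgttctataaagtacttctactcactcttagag

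The latent TGF-beta binding proteins store latent TGF-beta in the matrix, except Ltbp2, which does not bind it. Ltbp3 was covered to 23.5 and 16.6%, 20.2 and 32.5%, 21.2 and 58.1%, and 12.8 and 19%. Ltbp4 had 8.89 to 18.5%, Ltbp1 4.59 to 13% and Ltbp2 5.25 to 11.5%. Noggin (Nog), an antagonist that binds BMPs, and Id1 had no peak in any list. The other Id genes, which encode inhibitors of DNA binding and are direct targets of BMP Smads, had peaks in adult or TAC lists alone: Id2 (21.8%) and Id3 (20.9%) in TAC replicate 1, and Id4 in adult replicate 1 (10.2%) and TAC replicate 2 (9.24%). None was found in both replicates of a point. These genes span 1.16 to 4.91 kb, so 1 peak of the usual width takes a large share of them.

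The contrasts of 2 points were read against all genes tested, since the lists differ in how much they cover. From E14.5 to neonatal CMCs no member was called by limma, beside 0.523% of genes. At an unadjusted p below 0.05, 2 members were higher and none lower, beside 5.92% and 0.972% of all genes. Coverage was higher without overlap of the replicates in 15 of 36 members (25.9% of all genes) and lower in 2 (6.6%). Among the higher ones were Smad7, Acvr1 and Smad1, and the lower ones were Bmp10 and Inhba. The median log2 difference was 0.27 over the members and 0.21 over all genes. After each list was centred on the median of all genes tested, 6 members were higher (16.5% of all genes) and 9 lower (26.3%). The medians became -0.04 over the members and -0.11 over all genes. The direction of the list therefore turned with the scaling, while Acvr1, Smad1, Inhba and Bmp10 kept theirs and Smad7 was no longer apart.

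From neonatal to adult CMCs 2 members, Tgfb3 and Smurf1, were higher without overlap (16.5% of genes) and 7 were lower (21.7%): Tgfb2, Bmp7, Bmp10, Bmp5, Bmpr1a, Bmpr1b and Smad9. Centring left the same 7 lower (23.6%) and put Smad3 and Smad6 beside Tgfb3 and Smurf1 as higher (20.7%). The median log2 difference was 0.02 over the members and -0.06 over all genes. Of the 67 other pathway genes, 11 were higher and 22 lower without overlap.

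From E14.5 to adult CMCs 18 members were higher without overlap (29.1% of genes) and 6 lower (18.1%), the 6 being the 7 named above without Bmpr1a. With centring 6 were higher (22.3%), with Smurf1, Acvr1, Tgfb3 and Smad3 among them and Ski not, and 8 were lower (34.7%), as Inhba and Bmp4 joined. Medians were 0.34 over the members and 0.16 over all genes, and 0.03 and -0.15 with centring.

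From adult to TAC CMCs no member was called by limma, beside 0.86% of genes. No member had an unadjusted p below 0.05, where 1.64% of all genes were higher and 5.38% lower at that level. Without TAC replicate 2 limma also called 0 members, with 1, Smad9, at an unadjusted p below 0.05. Coverage was lower without overlap in 15 members (24% of genes), among them Ltbp3, Smad6 and Smad3, and higher in 2 (6.06%), Bmp4 and Bmpr1b. The log2 difference was -1.13 ± 0.57 SE for Ltbp3, -0.86 ± 0.40 SE for Smad6 and -0.77 ± 0.35 SE for Smad3 (limma adjusted p = 0.753, 0.743 and 0.737). Without TAC replicate 2 it was -1.40 for Ltbp3, -0.49 for Smad6 and -0.39 for Smad3. Set alone against both adult lists, TAC replicate 1 was lower in 16 members (31.4% of genes) and higher in 6 (20%), and with centring it was lower in 11 (30.7%) and higher in 10 (30.1%). With centring of all lists 5 members were lower (14.4%), Smad6 and Smad3 among them, and 2 higher (16%). The median over the members was -0.48, against -0.31 over all genes, and -0.08 against 0.08 with centring. Without TAC replicate 2 these medians were -0.19 against -0.09, and 0.00 against 0.11 with centring.

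The study kept bases called in both replicates, and by that rule the members held 211 common regions at E14.5 on 32 genes, 272 on 31 genes after birth, 228 on 31 genes in adults and 129 on 25 genes after TAC, of 57562, 66155, 46651 and 22893 in the genome. Most centres lay in introns: 91.9, 94.1, 89.9 and 96.9%. The promoters, 1 kb on each side of a start site, held 2, 3, 0 and 1, and the first Bmp10 region shown above was one of those at E14.5. Replicates shared more of their bases on the members than over the genome. Jaccard indices were 0.289, 0.338, 0.314 and 0.108 on the members and 0.216, 0.247, 0.203 and 0.0569 over the genome. The index rises with the share of bases covered, which was not matched, so closer agreement on these genes cannot be read from it.

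Genes differed in when such regions were found. Bmp7 had 15 at E14.5 and 26 after birth, then 9 in adults and 6 after TAC, and Tgfb2 had 10, 11, 3 and 3. Smurf1 ran the other way with 11, 12, 23 and 8, and Acvr1 had 10, 24, 19 and 9. Ski had 12, 14, 18 and 17, although TAC replicate 2 covered it least. Joined across points, these made 493 merged regions, of which 90 were found in neonatal CMCs alone, 86 in adult alone, 64 at E14.5 alone and 45 after TAC alone. Of the regions shared by points, 48 were in E14.5 and neonatal CMCs, 36 in neonatal and adult and 33 in all 3 of these. In 18 merged regions a common region was found at each of the 4 points. Counts with TAC depend on TAC replicate 2, which shared 56.2 kb with replicate 1 on the members. Within the other points 151 to 220 kb was shared.

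**Figure D5:**
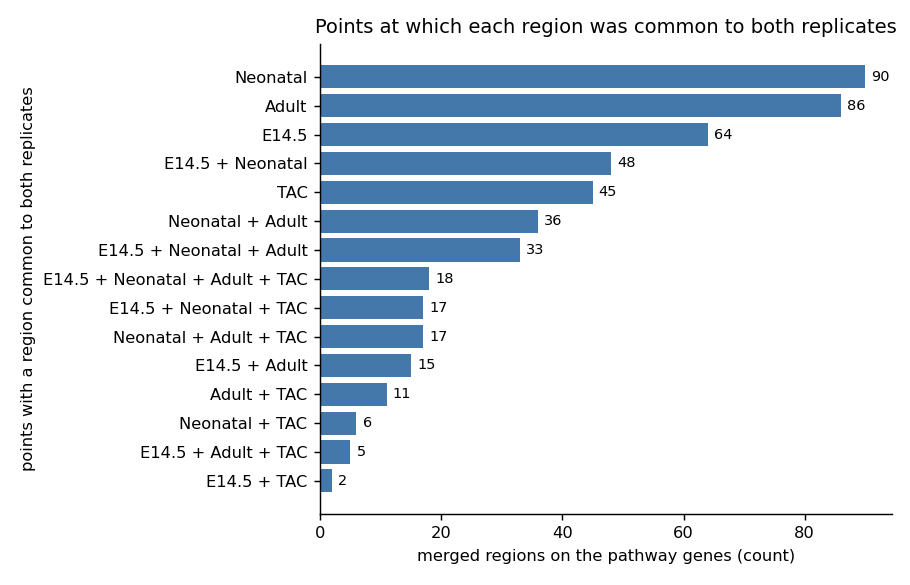
Number of merged regions on the 41 genes (horizontal axis, from 0) by the points at which a region common to both replicates was found (vertical axis). Single points lead with 90 for neonatal, 86 for adult and 64 for E14.5. Each combination that holds TAC with another point has 18 regions or fewer. Regions at TAC need TAC replicate 2, which shared few bases with TAC replicate 1.

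Base by base, 12 intervals lay in all 8 lists, of 2028 in the genome. Ski held 4 of them, Smad6 held 2, and Acvr1, Acvr2b, Smad1, Smad3, Smurf1 and Ltbp4 held 1 each. All but 1 were intronic, the exception lying in a coding exon of Smad6 68.3 kb from the gene start. Those of up to 300 bases are shown as the stretches whose mark was found at every point and in every replicate, on the plus strand of GRCm38 with CpGs in capitals, and all 5 genes are on the minus strand.
Smad6 coding exon, chr9:63953626-63953834: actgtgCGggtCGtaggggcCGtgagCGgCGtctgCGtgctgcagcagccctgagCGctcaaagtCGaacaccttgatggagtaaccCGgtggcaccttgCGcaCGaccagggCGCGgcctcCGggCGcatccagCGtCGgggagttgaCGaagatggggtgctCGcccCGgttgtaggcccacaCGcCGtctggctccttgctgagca
Ski intron, chr4:155202224-155202422: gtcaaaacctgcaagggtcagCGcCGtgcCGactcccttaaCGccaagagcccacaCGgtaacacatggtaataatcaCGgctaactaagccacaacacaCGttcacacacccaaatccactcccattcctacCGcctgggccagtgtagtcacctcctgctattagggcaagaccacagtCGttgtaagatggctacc
Smurf1 intron, chr5:144901678-144901765: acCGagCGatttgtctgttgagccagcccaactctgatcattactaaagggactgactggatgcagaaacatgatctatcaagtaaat
Smad1 intron, chr8:79391350-79391401: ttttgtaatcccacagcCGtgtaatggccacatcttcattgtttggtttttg
Ltbp4 intron, chr7:27326091-27326329: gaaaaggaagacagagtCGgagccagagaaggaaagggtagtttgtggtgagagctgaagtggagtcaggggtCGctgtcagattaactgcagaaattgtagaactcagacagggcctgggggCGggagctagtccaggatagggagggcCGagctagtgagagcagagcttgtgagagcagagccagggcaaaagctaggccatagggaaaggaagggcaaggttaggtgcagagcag
The Smad6 exon held 22 CpGs in 209 bases (10.5 per 100 bp) and the Ski stretch 9 in 199 (4.52 per 100 bp). The Smurf1, Smad1 and Ltbp4 stretches had 2.27, 1.92 and 1.67 CpGs per 100 bp.

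Over all common regions on the members there were 2 CpGs per 100 bp at E14.5, 1.83 after birth, 1.91 in adults and 1.71 after TAC, against 1.2 over the whole spans of the 41 genes. The regions on all protein-coding genes had 1.75, 1.72, 1.93 and 1.72, against 0.99 over the spans. Peaks of TAC replicate 2 on the members had 1.39 CpGs per 100 bp, where the other 7 lists had 1.66 to 1.79. Windows of 501 bp were taken around the centres of common regions. The palindromic Smad-binding element GTCTAGAC occurred in 0% on the members at each point and in 0.41 to 0.52% on all protein-coding genes. The members had 211, 272, 228 and 129 such windows, too few to tell 0% from these shares. The GC-rich palindrome GGCGCC was in 5.21, 3.68, 3.95 and 2.33% of windows on the members, and in 3.18, 3.17, 3.72 and 3.26% on all protein-coding genes. A palindrome reads the same on both strands and the motifs do not overlap each other.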

How the data were processed

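DNA of isolated mouse CMCs was profiled by 5-hmC immunoprecipitation and sequencing (hMeDIP-seq). The authors mapped reads to mm10 with BWA 0.7.4-r385, handled duplicates with Picard and filtered on mapping quality, and HOMER in histone mode then called peaks per replicate over input DNA. The deposited lists hold peak positions, and the score the authors deposited is 1 for every peak, so peaks could not be ranked. Read numbers are not in the lists: depth is unknown here, no interval that needs it is given, and a more deeply sequenced library can yield more and wider peaks. Input and sh-control libraries were not analysed here.

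Coverage, the percent of a gene span inside peaks, was computed for 21000 protein-coding genes of the curated RefSeq annotation of GRCm38, the assembly of mm10, with Python 3.11.15, numpy 2.4.6 and pandas 2.3.3. Figures were drawn with matplotlib 3.10.9. In TAC replicate 2, 3 peaks on the mitochondrial genome were left out. limma 3.58.1 in R 4.3.3 (lmFit, eBayes with a trend) was fitted to log2(percent + 1 percentage point) of the 16049 genes with a peak in at least 2 of the 8 lists, with the point as the factor, and p-values were adjusted by Benjamini-Hochberg over all of them and called at 0.05. The script was tested on simulated data. The 2 replicates per point are labelled as such, and p-values measure the spread between them. For Bmp10 the adult and TAC values were all 0, a floor below which no difference can be seen. Its own spread thus came from the E14.5 and neonatal lists, and its SE and p-values may be too small.

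The members and gene lists were chosen with earlier results of these data known. Named members were those called, the 3 largest rises and falls among members whose replicates did not overlap in each contrast, the 5 with the highest mean coverage, those not tested and those with an interval found in all 8 lists. Alternatives were centring on the median, a pseudocount of 0.25, no filter, spans of at least 5 kb, 10 kb on each side, peak centres, wider peaks, peaks shared by replicates, GENCODE M21, other summaries of the mean, other definitions of common regions, a replicate block and leaving out each list. Chosen after seeing the data were centring without TAC replicate 2 or with the block, and the non-overlap counts on centred values or with TAC replicate 1 alone.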

Additional observations from a re-analysis of the deposited data

How the results depend on the processing

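In the contrast for which a member was named by a call or by a largest rise or fall, no log2 difference reversed under a limma alternative. Bmp10 from neonatal to adult became 0.00 with peaks shared by replicates. In other contrasts some signs changed with centring: from E14.5 to neonatal, Bmp7 and Tgfb2 each went from 0.18 to -0.13. With centring the median of the members changed sign from E14.5 to neonatal, from 0.27 to -0.04, where that of all genes went from 0.21 to -0.11. In the other contrasts it kept its sign. The balance of members without overlap turned in 2 contrasts. From E14.5 to neonatal 15 higher and 2 lower became 6 and 9, and from E14.5 to adult 18 and 6 became 6 and 8. The number of members called over the 4 points (1) became 0 with 10 kb on each side, with peaks wider than the median, and with centring together with leaving out TAC replicate 2 or with the replicate block. The neonatal to adult call (1) became 0 with centring, 10 kb on each side, wider peaks, the replicate block and both combined settings, and 0 or 1 when a replicate was left out: each neonatal and each adult list ended it (adjusted p = 0.0625 to 0.0702). The E14.5 to adult call (1) became 0 with 10 kb on each side, with centring and the replicate block together, and without E14.5 replicate 2 (adjusted p = 0.0559), so leaving out a replicate gave 0 to 1. With wider peaks Bmp10 was not called in this contrast either (limma adjusted p = 0.593), and the 1 member called was Tgfb3 (limma adjusted p = 0.0499, log2 difference 3.70). Bmp10 over the 4 points kept an adjusted p of 0.0215 to 0.0405 without each single list. With peaks shared by replicates, 24 of the 34 members tested were called over the 4 points, beside 11529 of 12732 genes. From E14.5 to neonatal 15 members were called (6550 of all genes), and from neonatal to adult 12 (7312 genes). From adult to TAC 14 were called (7013 genes), and from E14.5 to adult 15 (8141 genes). This setting keeps only what replicates have in common and so lowers their spread by construction. With 10 kb on each side 0 of 18970 genes were called. Apart from these 2 settings, the calls among all genes over the 4 points (358) ran from 3, with centring and the block, to 629, without TAC replicate 1.

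The labels tie the same-numbered samples by a number alone and do not say whether they were processed together. Correlations of their deviations from the point means were all positive, from 0.018 to 0.231, and highest between E14.5 and neonatal CMCs. The replicate block gave 130 called genes over the 4 points, Bmp10 among them (adjusted p = 0.0466).

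The mean coverage of the members became 8.83, 11.8 and 12.4% (E14.5, neonatal, adult) with wider peaks, 7.79, 10.2, 10.4 and 4.49% (with TAC) with shared peaks, and 8.46, 10.3 and 9.82% as a median over members. Leaving out a replicate gave 10.9 to 12.9%, 13.7 to 15.3%, 13.3 to 16.1% and 7.34 to 13.7%. Common regions numbered 138, 147, 114 and 26 where the overlap had to reach 50% of each peak, 101, 166 and 56 (E14.5, neonatal, TAC) with wider peaks, and 556, 590, 547 and 571 for peaks of either replicate. The causes were not tested. The limits are the 2 samples per point, the unknown read depth, and a score without rank, so that a wider or stronger peak cannot be told from deeper sequencing.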
